A study of Mus musculus with 24 samples.

Results

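The comparison described here set fetal liver progenitors that carried an inducible MLL::ENL against control fetal liver progenitors, both at embryonic day 16 (E16). It took in 8 of the 24 RNA-seq libraries of the series, chosen by their sample titles: 4 libraries of E16 ME LSK cells and 4 of E16 Control LSK cells. The E16 ME cells were sorted from the livers of Tet-On-ME mice, in which a tetracycline-controlled transgene encodes MLL::ENL, and the fusion was induced after the sort, in culture. The E16 Control cells were sorted from the livers of control mice, and cells of both groups were kept in culture for 48 h before RNA was taken. The strain, the controls' transgenes, the inducing agent and its dose, the culture medium and the number of animals behind a library were not given in the sources used here. Replicates were therefore taken as labelled, and their spread, which sets the p-values, may be in part technical. The other 16 libraries are ME and Control LSK cells from bone marrow at postnatal day 14 (P14) and 8 weeks (8wk), 4 of each. Age and tissue change together between E16 and the later ages and cannot be told apart.

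LSK cells lack lineage markers and carry Sca-1 (Ly6a) and KIT, and the compartment holds blood stem cells and multipotent progenitors. MLL::ENL joins the DNA-binding end of the histone methyltransferase MLL (Kmt2a) to ENL (Mllt1), a reader of acetylated histones that belongs to complexes that release paused RNA polymerase. The fusion is known from infant and childhood leukaemia, where it keeps Hoxa genes, their partner Meis1 and other stem cell genes switched on.

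The 8 libraries held 33.9 to 59.3 M counts (M, 1000000), with means of 46.7 M in ME and 44.3 M in Control (exact two-sided permutation test, p = 0.714, with 4 libraries a group allowing no p under 0.0286). The markers of the sort were present in each library. Kit had 519, 705, 725 and 632 CPM in the ME libraries, against 439.8, 541, 485 and 394 CPM in the Control libraries, where CPM is counts per 1000000 counts of the library. Ly6a had 556, 507, 503 and 554 CPM in ME, against 762, 827, 572 and 481 CPM in Control. The T cell gene Cd3e, the granulocyte gene Ly6g and the liver gene Alb stayed under 0.63 CPM in each of the 8. The first principal component of these 8 libraries carried 42.9% of the variance and separated ME from Control, and the second carried 18% and set ME library 4 apart from the other 3 ME libraries. ME library 4 also had the lowest mean correlation with its own group, 0.965, against 0.973 to 0.980 for the other 7 libraries. Ribosomal RNA took 2.03% of the counts of ME library 1 and 5.09% of Control library 4, and 0.315% to 0.527% of the other 6. Y-linked genes summed to 0.738, 197, 6.54 and 1.25 CPM in ME libraries 1 to 4, against 202, 214, 9.35 and 9.55 CPM in Control libraries 1 to 4, so male and female material was mixed in both groups.

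The genes that make up the fusion were higher in ME cells. Mllt1 (ENSMUSG00000024212, chromosome 17, 56892611 to 56935415) had 55.1, 58.1, 60.0 and 41.6 CPM in ME libraries 1 to 4, against 26.7, 19.0, 14.1 and 13.9 CPM in Control libraries 1 to 4. Kmt2a (ENSMUSG00000002028, chromosome 9, 44803355 to 44881296) had 18.4, 20.1, 14.5 and 17.2 CPM in ME libraries 1 to 4, against 11.7, 9.81, 6.34 and 11.1 CPM in Control libraries 1 to 4. For both genes every ME library lay above every Control library. The log2 fold change of Mllt1 was 1.54 ± 0.29 (standard error; edgeR, adjusted p = 6.00e-04), and that of Kmt2a was 0.85 ± 0.23 (adjusted p = 0.00946). Counts per gene do not separate reads of the transgene from reads of the mouse's own Mllt1 and Kmt2a. Skida1 (ENSMUSG00000054074, chromosome 2, 18040676 to 18049051), the gene of the series title, had 15.8, 14.6, 12.8 and 10.8 CPM in ME libraries 1 to 4, against 0.541, 0.861, 0.741 and 0.440 CPM in Control libraries 1 to 4. The groups were far apart and the log2 fold change was 4.39 ± 0.31 (adjusted p = 4.24e-09). These calls held in each fit that left out 1 of the 8 libraries.

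The start sites of 3 genes that rose and 3 that fell are shown because rises and falls of more than 1 on the log2 scale differed in their median CpG counts there. The windows are RefSeq sequences of GRCm38.p6, from 250 bases before to 50 bases after the start that RefSeq gives, written 5′ to 3′ on the gene's strand, with each CpG in capitals. Nkx2-3, Hoxa10 and Src, which rose, come first, and Ppbp, Pf4 and Gp1ba, which fell, come second. The windows lie at chr19:43612075-43612374 (plus strand), chr6:52240805-52241104 (minus strand), chr2:157424043-157424342 (plus strand), chr5:90768268-90768567 (plus strand), chr5:90772185-90772484 (plus strand) and chr11:70638872-70639171 (plus strand), in that order. For Src that start lies inside the gene span given with its values.
Nkx2-3: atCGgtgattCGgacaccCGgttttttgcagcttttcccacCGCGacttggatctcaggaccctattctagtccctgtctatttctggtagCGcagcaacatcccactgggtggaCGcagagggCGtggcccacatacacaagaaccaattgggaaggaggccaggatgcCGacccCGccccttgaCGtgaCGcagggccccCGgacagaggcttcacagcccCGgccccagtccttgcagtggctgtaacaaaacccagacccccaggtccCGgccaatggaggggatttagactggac
Hoxa10: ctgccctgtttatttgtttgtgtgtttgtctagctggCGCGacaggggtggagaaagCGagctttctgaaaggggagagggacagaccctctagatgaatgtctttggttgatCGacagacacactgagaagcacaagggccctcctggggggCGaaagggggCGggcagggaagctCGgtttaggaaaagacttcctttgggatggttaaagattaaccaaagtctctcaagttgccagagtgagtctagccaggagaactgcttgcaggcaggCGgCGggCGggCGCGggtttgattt
Src: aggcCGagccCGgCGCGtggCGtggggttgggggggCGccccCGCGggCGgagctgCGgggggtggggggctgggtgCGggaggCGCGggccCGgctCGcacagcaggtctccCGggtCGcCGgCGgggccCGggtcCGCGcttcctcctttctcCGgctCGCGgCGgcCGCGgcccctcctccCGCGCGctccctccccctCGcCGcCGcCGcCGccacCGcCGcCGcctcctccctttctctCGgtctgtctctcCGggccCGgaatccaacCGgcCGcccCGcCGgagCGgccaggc
Ppbp: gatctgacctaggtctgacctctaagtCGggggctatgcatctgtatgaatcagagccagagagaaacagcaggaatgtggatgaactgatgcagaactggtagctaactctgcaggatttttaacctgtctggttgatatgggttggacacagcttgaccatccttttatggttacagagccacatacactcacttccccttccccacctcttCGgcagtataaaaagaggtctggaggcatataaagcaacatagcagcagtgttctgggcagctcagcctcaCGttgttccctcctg
Pf4: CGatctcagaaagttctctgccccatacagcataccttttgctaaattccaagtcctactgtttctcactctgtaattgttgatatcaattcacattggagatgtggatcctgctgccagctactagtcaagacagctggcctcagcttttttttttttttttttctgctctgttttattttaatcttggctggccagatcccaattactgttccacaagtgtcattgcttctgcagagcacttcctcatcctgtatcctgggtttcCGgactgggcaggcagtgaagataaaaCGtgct
Gp1ba: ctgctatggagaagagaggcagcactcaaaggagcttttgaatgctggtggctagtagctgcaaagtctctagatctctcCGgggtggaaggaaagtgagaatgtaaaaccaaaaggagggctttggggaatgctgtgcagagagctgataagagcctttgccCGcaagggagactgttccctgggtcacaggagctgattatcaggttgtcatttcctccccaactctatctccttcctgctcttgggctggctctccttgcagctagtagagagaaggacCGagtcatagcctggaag
The windows of Nkx2-3, Hoxa10 and Src hold 15, 12 and 47 CpG dinucleotides, and those of Ppbp, Pf4 and Gp1ba hold 3 each. Over the 11622 tested genes whose symbol matched a window, the median was 20 (quartiles 10 and 28). It was 24 over the 1186 matched genes that rose by more than 1 on the log2 scale, and 8 over the 97 that fell by more than 1. Over all 1803 matched genes that rose it was 23, and over all 1182 that fell it was 20, as over all genes tested. Over the 27 matched platelet and megakaryocyte genes the median was 4. The 6 genes were chosen after their values were seen, and a count of CpG in such a window is a description of its letters.

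**Figure D1:**
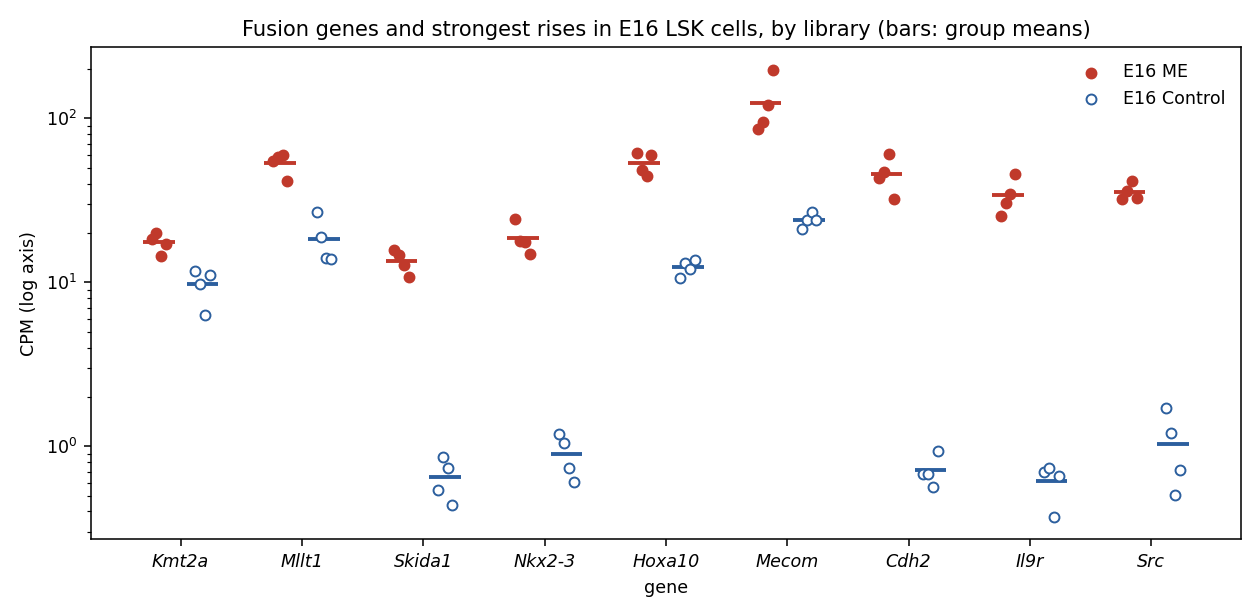
CPM on a log axis of 9 genes in the 4 E16 ME libraries (filled circles, left of each pair) and the 4 E16 Control libraries (open circles, right), with horizontal bars at the group means. For each gene shown, from Kmt2a to Src, the lowest ME library lies above the highest Control library.

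Across the 18931 genes tested, MLL::ENL cells differed from controls at 4125 (21.8%). The edgeR quasi-likelihood test called 2522 genes higher (13.3%) and 1603 lower (8.47%) at a Benjamini-Hochberg adjusted p under 0.05. Higher genes were 61.1% of the calls, against 74.6% when libraries were scaled by their totals only. Rises were larger than falls: 1721 of the called rises exceeded 1 on the log2 scale, against 149 of the called falls. No ME library reached down to a Control library at 2736 genes (14.5%) and none reached up to one at 2417 (12.8%), which makes 5153 (27.2%) in all. The median log2 fold change over all genes was 0.02. Leaving out 1 E16 library at a time gave 3024 to 3719 calls.

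The rises were not limited to messenger RNAs. Among 13637 protein-coding genes 2152 rose and 1427 fell. Of 636 genes of the class TEC (transcripts to be experimentally tested) 79 rose and none fell, with a median log2 fold change of 0.53. Of 562 antisense genes 81 rose and 3 fell, with a median of 0.46, and of 81 sense intronic genes 8 rose and none fell, with a median of 0.73. The shares that rose in these 3 classes were near or below the 13.3% of all genes tested. The shares that fell were under the 8.47% of all genes. Among processed pseudogenes, copies of spliced messages, falls outnumbered rises: 76 of 2786 rose and 153 fell, with a median of -0.23. Both shares were under those of all genes. The strand setting of the counting was not stated, so reads of antisense and sense intronic genes cannot be told apart from reads of the genes they overlap.

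**Figure D2:**
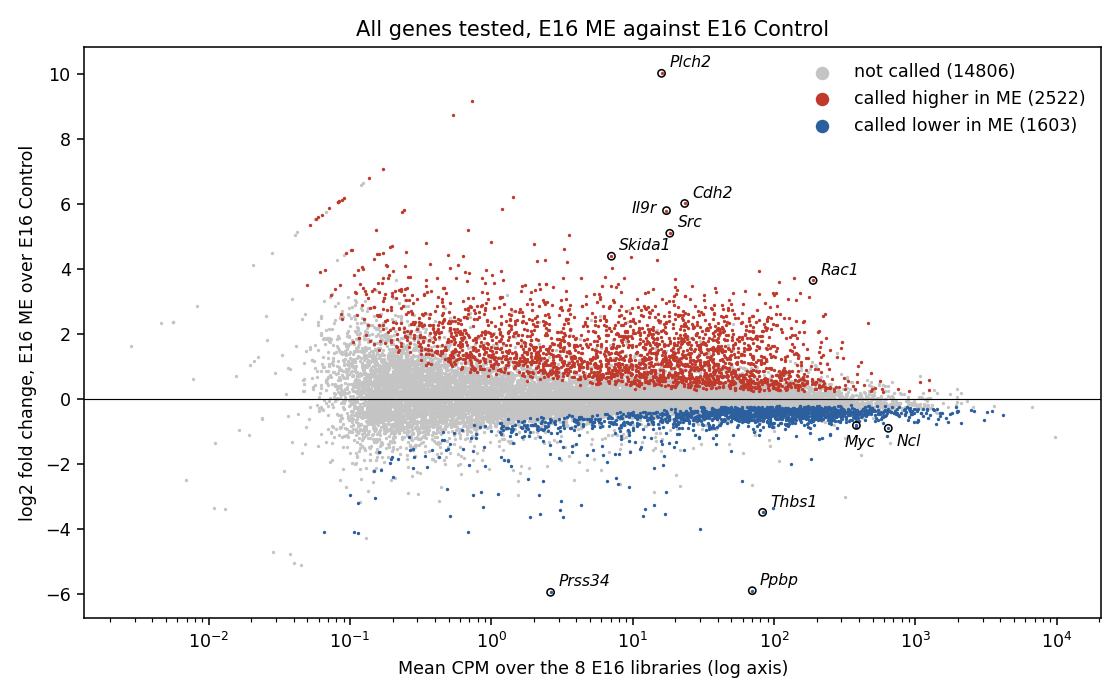
Log2 fold change of E16 ME over E16 Control (vertical) against the mean level in CPM over the 8 libraries (horizontal, log axis) for the 18931 genes tested, with called genes in colour. The cloud of called rises reaches further from 0 than that of called falls, and Plch2, Cdh2, Il9r and Src mark the upper edge while Ppbp and Prss34 mark the lower.

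Hoxa genes, the best known targets of MLL fusions, rose in part. Of 8 tested Hoxa genes 4 rose and none fell. Hoxa10 had 61.8, 48.2, 44.4 and 60.2 CPM in ME libraries 1 to 4, against 10.7, 13.1, 12.0 and 13.7 CPM in Control libraries 1 to 4. Hoxa9 had 109.6, 91.8, 88.3 and 115 CPM in ME libraries 1 to 4, against 50.0, 52.9, 56.5 and 64.9 CPM in Control libraries 1 to 4. Hoxa5 had 2.44, 2.47, 2.63 and 2.91 CPM in ME libraries 1 to 4, against 0.680, 0.584, 0.763 and 0.660 CPM in Control libraries 1 to 4. In these 3 genes the groups did not overlap, and the log2 fold changes were 2.12 ± 0.16 (standard error; edgeR, adjusted p = 7.73e-09) for Hoxa10, 0.85 ± 0.11 (adjusted p = 1.18e-05) for Hoxa9 and 1.95 ± 0.17 (adjusted p = 5.68e-08) for Hoxa5. Hoxa2, at 0.300 to 0.381 CPM in ME and 0 to 0.193 CPM in Control, was the fourth (log2 fold change 1.85 ± 0.62, adjusted p = 0.0364), and its adjusted p ran from 0.0202 to 0.104 over the fits without 1 library. Hoxa7 was high in both groups, at 33.5 to 38.3 CPM in ME against 25.1 to 31.8 CPM in Control, and was not called (log2 fold change 0.33 ± 0.18, adjusted p = 0.198). Hoxa3 (log2 fold change 0.81 ± 0.34), Hoxa4 (log2 fold change 0.78 ± 0.68) and Hoxa6 (log2 fold change 1.48 ± 0.56) were not called either, with adjusted p = 0.0931, 0.45 and 0.062, and none of the 3 reached 1.4 CPM in any library.

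Hoxb genes also rose in part, with 4 of 5 called higher. Hoxb5 had 0.991, 0.823, 1.77 and 2.08 CPM in ME libraries 1 to 4, against 0.192, 0.307, 0.283 and 0.110 CPM in Control libraries 1 to 4. Its log2 fold change was 2.66 ± 0.40 (standard error; edgeR, adjusted p = 5.27e-05), and that of Hoxb2 was 3.40 ± 0.71 (adjusted p = 0.00161), with Hoxb2 at 0.301 to 0.658 CPM in ME and 0.0218 to 0.0615 CPM in Control. Hoxb6 (log2 fold change 3.10 ± 0.94, adjusted p = 0.0207) and Hoxb4 (log2 fold change 1.35 ± 0.48, adjusted p = 0.0467) lost their calls in several fits without 1 library, with adjusted p up to 0.0676 and 0.121, and 2 or 3 Hoxb genes were called in each such fit. Hoxb7 was not called (log2 fold change 1.81 ± 0.92, adjusted p = 0.17). Of 7 TALE partners of HOX proteins, Pbx3 had 12.9, 6.46, 4.88 and 4.28 CPM in ME libraries 1 to 4, against 1.66, 2.00, 1.79 and 3.47 CPM in Control libraries 1 to 4, and its log2 fold change was 1.68 ± 0.36 (adjusted p = 0.00204). Meis1 had 152, 149, 174 and 231 CPM in ME libraries 1 to 4, against 118, 120.2, 128 and 119 CPM in Control libraries 1 to 4 and a log2 fold change of 0.54 ± 0.17 (adjusted p = 0.022). The call of Meis1 ended without ME library 4 (adjusted p = 0.118), Control library 2 (0.0514) or Control library 4 (0.0568). Pbx2 (log2 fold change 0.29 ± 0.15) and Pknox1 (log2 fold change -0.07 ± 0.11) were not called.

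Transcription factors needed in blood stem cells rose more often than they fell, 10 of 22 tested against 2. Nkx2-3 (ENSMUSG00000044220, chromosome 19, 43612325 to 43615892), a homeobox factor, had 24.4, 17.9, 17.6 and 15.0 CPM in ME libraries 1 to 4, against 1.19, 1.05, 0.741 and 0.605 CPM in Control libraries 1 to 4, a log2 fold change of 4.38 ± 0.30 (standard error; edgeR, adjusted p = 2.42e-09). Mecom, which encodes the stem cell factor EVI1, had 85.9, 94.8, 121 and 198 CPM in ME libraries 1 to 4, against 21.3, 24.0, 26.8 and 23.9 CPM in Control libraries 1 to 4. Lmo2, a bridging protein of stem cell transcription complexes, had 517, 429.6, 444 and 722 CPM in ME libraries 1 to 4, against 322, 280.3, 235 and 203 CPM in Control libraries 1 to 4. In all 3 genes the lowest ME library was above the highest Control library, and the log2 fold changes of Mecom and Lmo2 were 2.38 ± 0.29 (adjusted p = 7.66e-06) and 1.02 ± 0.16 (adjusted p = 1.25e-04). Hlf, a factor of stem cell quiescence, rose by 1.37 ± 0.34 log2 (adjusted p = 0.00654), with 165, 146, 159 and 329 CPM in ME against 91.1, 80.5, 67.6 and 69.6 CPM in Control, so ME library 4 stood far above the other 3. Myb rose by 0.57 ± 0.14 log2 (adjusted p = 0.00654). The members that fell were Gfi1b, a factor of red cell and platelet formation, at -0.73 ± 0.16 log2 (adjusted p = 0.00238), and Mycn at -0.56 ± 0.15 log2 (adjusted p = 0.0106). Without 1 library, 7 to 11 of the factors rose, with 7 without ME library 4.

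Surface receptors of stem and progenitor cells were divided, with 6 of 26 higher and 4 lower. Procr, the endothelial protein C receptor that marks stem cells, had 27.0, 22.9, 28.5 and 54.9 CPM in ME libraries 1 to 4, against 9.61, 11.8, 12.8 and 13.6 CPM in Control libraries 1 to 4, a log2 fold change of 1.48 ± 0.24 (standard error; edgeR, adjusted p = 1.54e-04). Cd93 rose by 0.81 ± 0.20 log2 (adjusted p = 0.0048). Cd9, a tetraspanin of stem cells and platelets, had 187, 159, 153 and 164 CPM in ME libraries 1 to 4, against 230.4, 197, 295 and 297 CPM in Control libraries 1 to 4 and fell by 0.62 ± 0.14 log2 (adjusted p = 0.00255). The gated markers were not called: Kit had a log2 fold change of 0.47 ± 0.17 (adjusted p = 0.0501) and Ly6a of -0.32 ± 0.26 (adjusted p = 0.425), and Cd34 (log2 fold change -0.29 ± 0.11) and Flt3 (log2 fold change 0.16 ± 0.21) were not called either.

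Endothelial markers also rose, 5 of 12 tested, and none fell. Emcn, a sialoglycoprotein of vessels and stem cells, had 14.3, 10.4, 12.9 and 21.3 CPM in ME libraries 1 to 4, against 2.67, 3.01, 4.05 and 4.46 CPM in Control libraries 1 to 4, a log2 fold change of 2.05 ± 0.27 (standard error; edgeR, adjusted p = 1.25e-05). Robo4, a guidance receptor of vessels and stem cells, rose by 1.89 ± 0.34 log2 (adjusted p = 4.40e-04), and Plvap, a protein of vessel fenestrae, by 3.15 ± 0.61 log2 (adjusted p = 7.39e-04) with no ME library over 2.23 CPM. The defining endothelial genes Cdh5 (log2 fold change 0.81 ± 0.72, adjusted p = 0.462) and Pecam1 (log2 fold change -0.01 ± 0.17, adjusted p = 0.984) were not called, and Cdh5 did not reach 1 CPM in any library. The 14 listed genes summed to 242 to 495 CPM in ME, against 233 to 278 CPM in Control.

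Plch2, Cdh2, Il9r and Src had the largest rises among genes at 5 CPM or more in ME whose groups did not overlap. Plch2, a phospholipase C, had 29.6, 42.5, 45.4 and 10.4 CPM in ME libraries 1 to 4, against 0.0698, 0, 0 and 0.0275 CPM in Control libraries 1 to 4, and a log2 fold change of 10.01 ± 1.21 (standard error; edgeR, adjusted p = 1.08e-05) that rests on 5 counts over the 4 Control libraries. Cdh2 (ENSMUSG00000024304, chromosome 18, 16588877 to 16809246), the adhesion protein N-cadherin, had 43.5, 47.1, 61.0 and 32.3 CPM in ME libraries 1 to 4, against 0.680, 0.676, 0.567 and 0.936 CPM in Control libraries 1 to 4. Il9r (ENSMUSG00000020279, chromosome 11, 32187541 to 32200279), the receptor chain of interleukin 9, had 25.5, 30.3, 34.8 and 45.7 CPM in ME libraries 1 to 4, against 0.698, 0.738, 0.370 and 0.660 CPM in Control libraries 1 to 4. Src (ENSMUSG00000027646, chromosome 2, 157418444 to 157471862), the founding member of its kinase family, had 32.0, 36.3, 41.3 and 32.7 CPM in ME libraries 1 to 4, against 1.71, 1.20, 0.501 and 0.716 CPM in Control libraries 1 to 4. In these 4 genes no Control library passed 1.71 CPM and no ME library was below 10.4 CPM. The log2 fold changes of Cdh2, Il9r and Src were 6.01 ± 0.38, 5.79 ± 0.37 and 5.09 ± 0.47, with adjusted p = 1.33e-09, 1.33e-09 and 3.90e-07.

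Other large rises were more even or less even across the ME libraries. Rhbdf1, a rhomboid-like regulator of growth factor release, had 14.7, 15.5, 15.9 and 18.8 CPM in ME libraries 1 to 4, against 1.20, 0.892, 1.92 and 0.908 CPM in Control libraries 1 to 4, a log2 fold change of 3.71 ± 0.36 (standard error; edgeR, adjusted p = 4.41e-07). Timp2, a metalloproteinase inhibitor, rose by 3.73 ± 0.39 log2 (adjusted p = 1.10e-06), and Tmem165, a Golgi ion transporter, by 3.92 ± 0.53 log2 (adjusted p = 3.24e-05). Kcnk12, a potassium channel subunit, had 14.4, 9.41, 2.92 and 0.986 CPM in ME against 0.436, 0.0922, 0 and 0.275 CPM in Control, so its log2 fold change of 5.03 ± 1.26 (adjusted p = 0.00727) covers a more than 10-fold range among ME libraries, and limma-voom did not call it (adjusted p = 0.148). Unc45b, a myosin chaperone, showed the opposite spread, with 2.88, 3.73, 2.94 and 15.3 CPM in ME against 0.0872, 0.369, 0.240 and 0.358 CPM in Control (log2 fold change 4.60 ± 0.63, adjusted p = 2.29e-05). Zfp771, a zinc finger protein, rose by 3.73 ± 0.62 log2, and Mlycd, the malonyl-CoA decarboxylase, by 3.74 ± 0.69 log2, with adjusted p = 1.90e-04 and 6.51e-04.

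Adhesion genes as a list held 8 rises and 2 falls among 38 tested, with 1 fall without ME library 4 or Control library 2. Pcdh7, a protocadherin, had 22.2, 28.5, 31.4 and 30.4 CPM in ME libraries 1 to 4, against 2.22, 1.41, 1.33 and 0.826 CPM in Control libraries 1 to 4, a log2 fold change of 4.27 ± 0.37 (standard error; edgeR, adjusted p = 6.21e-08). Itgav, the integrin alpha V chain, had 46.0, 59.8, 51.8 and 32.2 CPM in ME libraries 1 to 4, against 11.5, 9.96, 7.02 and 11.0 CPM in Control libraries 1 to 4 and rose by 2.27 ± 0.28 log2 (adjusted p = 9.50e-06). Itgb3, the beta 3 chain that pairs with both integrin alpha V and the platelet integrin alpha IIb, moved the other way, with 46.0, 61.7, 80.0 and 24.5 CPM in ME against 173, 158, 303 and 209 CPM in Control (log2 fold change -1.99 ± 0.45, adjusted p = 0.00354). The immunoglobulin-type adhesion protein Amigo2 rose by 4.26 ± 0.60 log2 (adjusted p = 3.83e-05). Integrins of blood cells at large, Itga4 (log2 fold change 0.41 ± 0.18), Itgb1 (log2 fold change 0.19 ± 0.10) and Itgal (log2 fold change 0.07 ± 0.22), were not called.

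Among 23 non-receptor tyrosine kinases 3 rose, a share near that of all genes, and 1 fell, a call that ended without any 1 of 6 libraries. Besides Src, its relative Fyn had 76.0, 78.5, 71.5 and 61.9 CPM in ME libraries 1 to 4, against 21.1, 12.0, 8.33 and 7.90 CPM in Control libraries 1 to 4, a log2 fold change of 2.54 ± 0.36 (standard error; edgeR, adjusted p = 4.89e-05). The focal adhesion kinase Ptk2 rose by 0.81 ± 0.21 log2 (adjusted p = 0.00817). The Src family members of blood cells Lyn (log2 fold change -0.08 ± 0.07) and Lck (log2 fold change 0.01 ± 0.14) were not called.

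Feedback inhibitors of cytokine and RAS signalling were among the genes that rose. In the JAK-STAT list 11 of 27 genes rose and 1 fell. Sh2b3, the adaptor LNK that restrains JAK2 in stem cells, had 67.3, 71.9, 77.0 and 37.0 CPM in ME libraries 1 to 4, against 11.6, 9.29, 7.08 and 9.52 CPM in Control libraries 1 to 4, a log2 fold change of 2.76 ± 0.32 (standard error; edgeR, adjusted p = 4.57e-06). Socs1, an inhibitor of JAK kinases, had 15.3, 8.47, 6.45 and 12.0 CPM in ME libraries 1 to 4, against 2.34, 1.60, 0.872 and 0.165 CPM in Control libraries 1 to 4 and rose by 3.06 ± 0.64 log2 (adjusted p = 0.00172). Socs5 rose by 1.99 ± 0.30 log2 (adjusted p = 7.92e-05), and the kinase gene Jak2 by 1.89 ± 0.41 log2 (adjusted p = 0.0025). The phosphatase Ptpn6 fell by 0.51 ± 0.11 log2 (adjusted p = 0.0023). Without Control library 4 only 6 genes of the list rose.

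In the RAS-MAPK feedback list 9 of 20 genes rose and none fell. Rasa1, a GTPase-activating protein that turns RAS off, had 83.6, 75.6, 61.7 and 36.6 CPM in ME libraries 1 to 4, against 12.5, 9.35, 9.65 and 10.2 CPM in Control libraries 1 to 4, a log2 fold change of 2.63 ± 0.29 (standard error; edgeR, adjusted p = 2.65e-06). Dusp5, a phosphatase of nuclear ERK, had 53.2, 58.8, 39.7 and 17.4 CPM in ME libraries 1 to 4, against 5.63, 4.80, 3.84 and 4.71 CPM in Control libraries 1 to 4 and rose by 3.15 ± 0.43 log2 (adjusted p = 3.11e-05). Dusp7 rose by 2.18 ± 0.54 log2 (adjusted p = 0.00674) and Spry2 by 1.32 ± 0.29 log2 (adjusted p = 0.00243). Dusp6 (log2 fold change 0.30 ± 0.16) and Spry4 (log2 fold change 0.17 ± 0.15), which answer to the same pathway, were not called.

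Of 36 cytokine receptors Il9r alone rose and 4 fell (13.9% called, against 21.8% of all genes). There were 2 falls without ME library 1 or 2 or Control library 2 or 3. Il1r1, the interleukin 1 receptor, had 46.1, 52.9, 56.2 and 44.8 CPM in ME libraries 1 to 4, against 101, 113, 115 and 98.3 CPM in Control libraries 1 to 4, without overlap, and fell by 1.10 ± 0.12 log2 (standard error; edgeR, adjusted p = 1.69e-06). Csf2rb, the beta chain shared by the receptors of interleukin 3, interleukin 5 and GM-CSF, had 67.3, 93.2, 100 and 71.9 CPM in ME libraries 1 to 4, against 189, 182, 137 and 118 CPM in Control libraries 1 to 4 and fell by 0.91 ± 0.19 log2 (adjusted p = 0.00127). Il7r, the receptor of lymphoid progenitors, was not called (log2 fold change 1.06 ± 0.75, adjusted p = 0.337), nor were Csf1r (log2 fold change -0.52 ± 0.72) and Csf3r (log2 fold change -0.18 ± 0.26). With only the 8 E16 libraries in the fit, 7 receptors rose and 2 fell.

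Chromatin proteins that work with or against MLL changed as well. Of 22 proteins that bind MLL or ENL 7 rose and 3 fell. Psip1, which encodes LEDGF, the protein that tethers MLL to chromatin, had 78.5, 67.5, 58.6 and 49.5 CPM in ME libraries 1 to 4, against 20.5, 11.9, 7.39 and 13.4 CPM in Control libraries 1 to 4, a log2 fold change of 2.25 ± 0.27 (standard error; edgeR, adjusted p = 5.69e-06). Aff4, the scaffold of the super elongation complex, rose by 1.32 ± 0.17 log2 (adjusted p = 1.46e-05). Wdr5, a core subunit of MLL methyltransferases, fell by 0.33 ± 0.08 log2 (adjusted p = 0.004). The menin gene Men1 (log2 fold change -0.16 ± 0.15) and the H3K79 methyltransferase gene Dot1l (log2 fold change 0.54 ± 0.25, adjusted p = 0.13) were not called.

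Polycomb subunits, which repress Hox genes, rose at 10 of 30 and fell at none, and 10 to 12 rose in the fits without 1 library. Bmi1, a PRC1 subunit needed by stem cells, had 116, 96.5, 73.4 and 54.1 CPM in ME libraries 1 to 4, against 28.5, 21.0, 19.2 and 25.9 CPM in Control libraries 1 to 4, a log2 fold change of 1.85 ± 0.24 (standard error; edgeR, adjusted p = 1.17e-05). Suz12, a core PRC2 subunit, rose by 1.87 ± 0.34 log2 (adjusted p = 4.64e-04), and Aebp2 by 1.61 ± 0.26 log2 (adjusted p = 1.13e-04). The catalytic subunit Ezh2 was not called (log2 fold change 0.08 ± 0.08, adjusted p = 0.507). Of 13 DNA methylation genes, the methyltransferase Dnmt3b had 256, 257, 283 and 189 CPM in ME libraries 1 to 4, against 104, 77.5, 59.0 and 64.0 CPM in Control libraries 1 to 4 and rose by 1.69 ± 0.22 log2 (adjusted p = 1.24e-05). Dnmt3a (log2 fold change -0.16 ± 0.15) and Dnmt1 (log2 fold change -0.70 ± 0.28) were not called, and Idh2 fell by 0.42 ± 0.08 log2 (adjusted p = 9.83e-04).

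**Figure D3:**
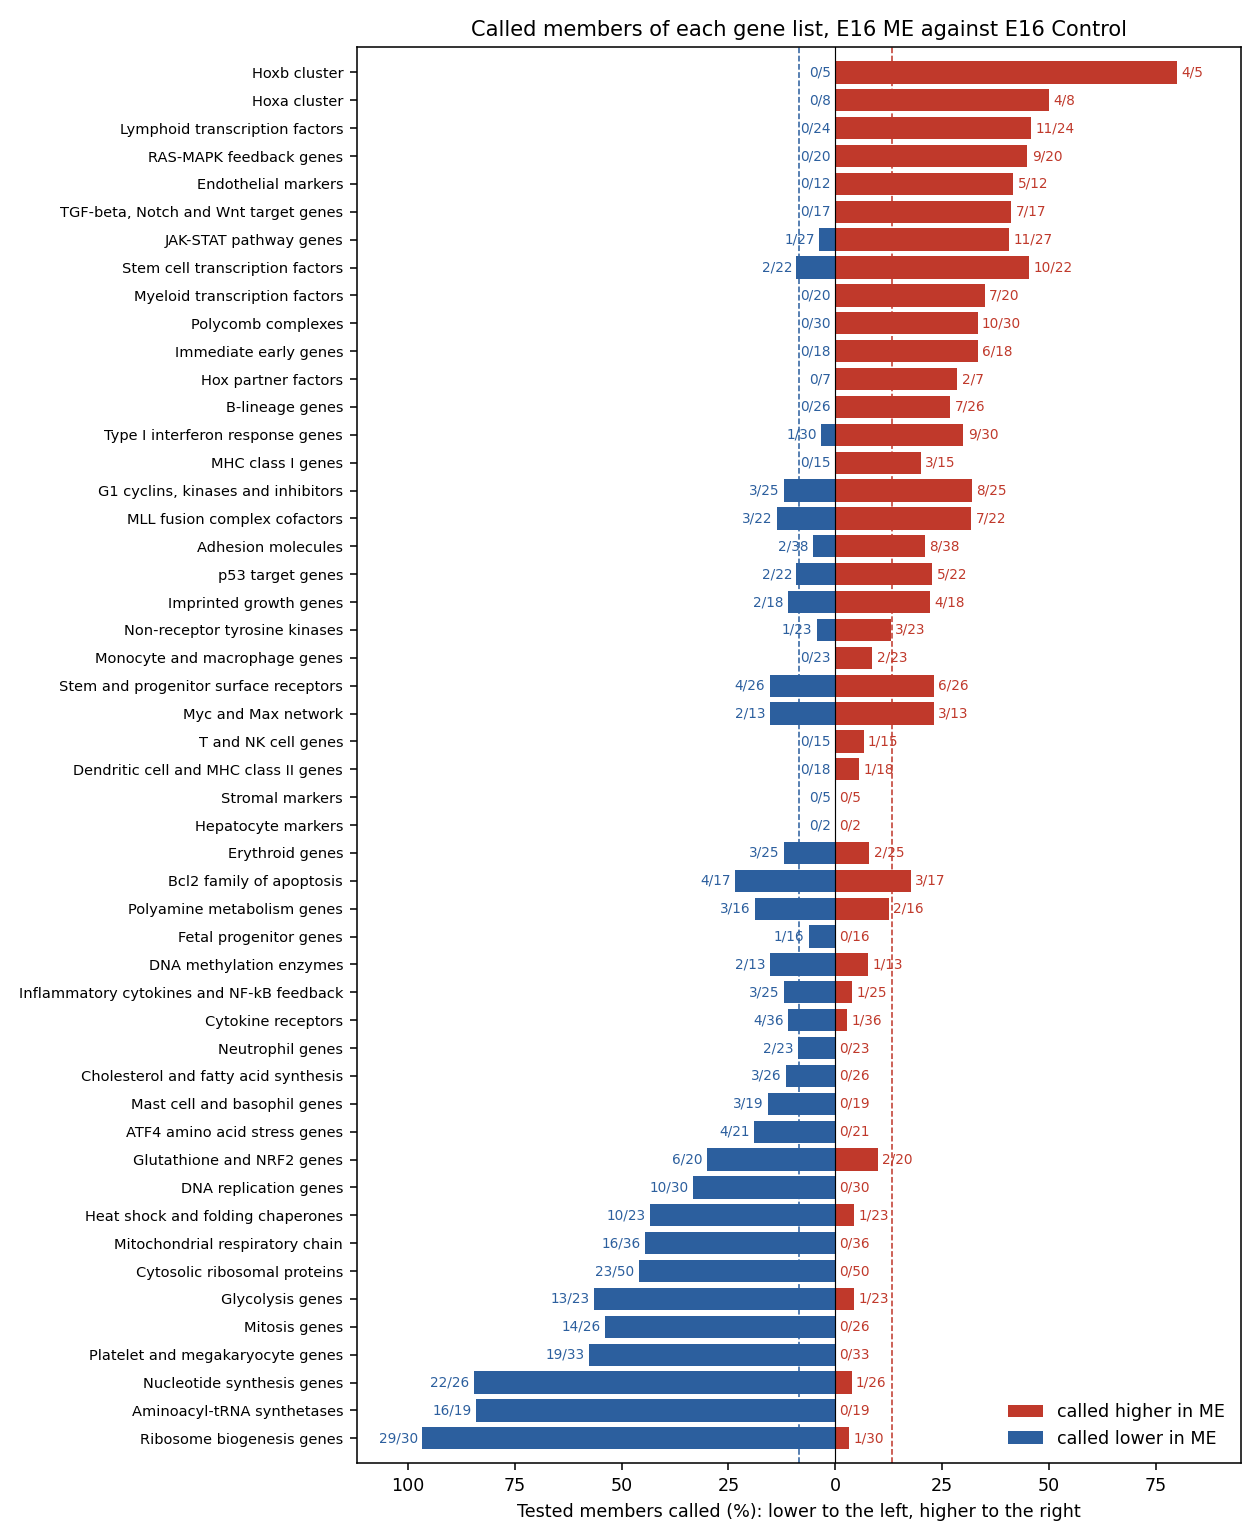
Share of the tested members of each gene list that were called lower (left of 0) and higher (right of 0) in E16 ME cells than in E16 Control cells, in percent, with the number called over the number tested printed at each list. Dashed lines mark the background of 8.47% lower and 13.3% higher over all genes, and the growth and metabolism lists lie to the left while the lymphoid, Polycomb and RAS-MAPK lists lie to the right.

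Factors of lymphoid specification rose at 11 of 24 genes and fell at none. Satb1, a chromatin organiser of lymphoid priming, had 81.1, 91.2, 72.9 and 58.0 CPM in ME libraries 1 to 4, against 22.8, 21.8, 16.1 and 16.2 CPM in Control libraries 1 to 4, a log2 fold change of 1.98 ± 0.21 (standard error; edgeR, adjusted p = 1.18e-06). Sox4, needed for early B cells, had 166, 137, 99.2 and 78.2 CPM in ME libraries 1 to 4, against 32.1, 31.2, 26.3 and 36.1 CPM in Control libraries 1 to 4 and rose by 1.93 ± 0.26 log2 (adjusted p = 1.87e-05). Ets1 rose by 1.58 ± 0.24 log2 (adjusted p = 6.62e-05), Ikzf2 by 1.34 ± 0.17 log2 (adjusted p = 9.70e-06) and Bach2 by 2.17 ± 0.45 log2 (adjusted p = 0.00157). Groups did not overlap for any of these 5 genes. In the B-lineage list 7 of 26 genes rose and none fell. The recombinase gene Rag1 had 7.91, 13.0, 12.8 and 15.1 CPM in ME libraries 1 to 4, against 3.35, 1.72, 3.60 and 3.61 CPM in Control libraries 1 to 4 and rose by 1.99 ± 0.44 log2 (adjusted p = 0.00251). Its partner Rag2 had 15.5, 17.0, 15.2 and 24.0 CPM in ME libraries 1 to 4, against 5.11, 4.74, 6.84 and 6.74 CPM in Control libraries 1 to 4 and rose by 1.61 ± 0.29 log2 (adjusted p = 3.28e-04). Ebf1 (log2 fold change 1.40 ± 0.66, adjusted p = 0.14), Pax5 (log2 fold change 2.64 ± 1.14, adjusted p = 0.104) and Cd79a (log2 fold change 2.35 ± 1.02, adjusted p = 0.109), the genes of committed B cells, were not called. The list summed to 368 to 539 CPM in ME, against 304 to 355 CPM in Control, and 4 of its genes rose with limma-voom, and 17 with only the 8 E16 libraries.

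Myeloid factors rose at 7 of 20 genes and fell at none. Gfi1, a repressor of granulocyte and stem cell programmes, had 18.5, 20.9, 8.75 and 5.96 CPM in ME libraries 1 to 4, against 1.41, 0.861, 0.349 and 0.660 CPM in Control libraries 1 to 4, a log2 fold change of 4.02 ± 0.67 (standard error; edgeR, adjusted p = 2.43e-04). Nfil3 rose by 1.00 ± 0.27 log2 (adjusted p = 0.0102). The master factor Spi1 (PU.1) was not called (log2 fold change -0.13 ± 0.17, adjusted p = 0.627). Cebpa was called at 1.65 ± 0.56 log2 (adjusted p = 0.0408) although ME library 4, at 1.23 CPM, lay below every Control library, and it lost the call without any 1 of 6 libraries (adjusted p up to 0.102). Without Control library 3 or 4, 4 of the factors rose.

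Many abundant genes rose strongly but unevenly. Rac1, a GTPase of the cytoskeleton, had 567, 487, 244 and 102 CPM in ME libraries 1 to 4, against 37.2, 27.7, 22.2 and 25.1 CPM in Control libraries 1 to 4. Srsf2, a splicing factor, had 500.1, 373, 117 and 43.6 CPM in ME libraries 1 to 4, against 23.4, 18.0, 15.8 and 21.9 CPM in Control libraries 1 to 4. Ppp2ca, the catalytic subunit of phosphatase 2A, had 524, 458, 219 and 81.1 CPM in ME libraries 1 to 4, against 43.3, 32.9, 29.4 and 39.4 CPM in Control libraries 1 to 4. Groups did not overlap, yet ME library 1 had more than 5 times the level of ME library 4 in each of the 3. The log2 fold changes were 3.64 ± 0.55 (standard error; edgeR, adjusted p = 1.07e-04) for Rac1, 3.71 ± 0.72 (adjusted p = 0.00104) for Srsf2 and 3.14 ± 0.54 (adjusted p = 3.49e-04) for Ppp2ca. The lysosomal protein Lamp1 rose by 3.26 ± 0.49 log2 (adjusted p = 1.00e-04), the ubiquitin ligase Rnf187 by 3.09 ± 0.51 log2 (adjusted p = 2.55e-04), and Parp12 by 3.61 ± 0.44 log2 (adjusted p = 1.06e-05). Not all abundant rises were uneven. Cdk17, a cyclin-dependent kinase, had 175, 169, 148 and 127 CPM in ME libraries 1 to 4, against 31.6, 25.2, 23.8 and 28.5 CPM in Control libraries 1 to 4, a log2 fold change of 2.51 ± 0.17 (adjusted p = 2.25e-09), and the ubiquitin-conjugating enzyme Ube2r2 rose by 1.61 ± 0.12 log2 (adjusted p = 6.94e-09). Ranbp9, a scaffold protein, rose by 2.65 ± 0.20 log2 (adjusted p = 1.09e-08). Of the 2522 genes that rose, ME library 4 was the lowest ME library at 976 and the highest at 1008, ME library 1 the lowest at 707 and the highest at 689. Of the 1721 that rose by more than 1 on the log2 scale, ME library 4 was the lowest at 824 and the highest at 556. ME library 1 was the lowest of these at 388 and the highest at 564. Of the 112 that rose with an ME mean of 200 CPM or more, ME library 4 was the lowest at 51 and ME library 1 at 21. The part of ME library 4's distance in these rises was not tested beyond leaving it out.

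Of 33 tested genes of platelets and megakaryocytes 19 fell and none rose, with a median log2 fold change of -0.85, and 16 to 19 fell in the fits without 1 library. Ppbp (ENSMUSG00000029372, chromosome 5, 90768518 to 90770063), the platelet basic protein, had 1.04, 2.65, 5.02 and 0.493 CPM in ME libraries 1 to 4, against 94.3, 49.7, 236 and 173 CPM in Control libraries 1 to 4. Thbs1, thrombospondin 1 of platelet granules, had 3.30, 17.9, 32.1 and 1.12 CPM in ME libraries 1 to 4, against 124, 69.8, 280.3 and 137 CPM in Control libraries 1 to 4. Alox12, the platelet lipoxygenase, had 2.37, 3.01, 3.73 and 1.48 CPM in ME libraries 1 to 4, against 22.6, 11.4, 56.9 and 33.1 CPM in Control libraries 1 to 4. Groups were far apart in all 3 genes, and both groups varied widely within themselves, with Control library 3 highest and Control library 2 lowest in each. The log2 fold changes were -5.89 ± 0.95 (standard error; edgeR, adjusted p = 1.96e-04) for Ppbp, -3.49 ± 0.83 (adjusted p = 0.00524) for Thbs1 and -3.55 ± 0.41 (adjusted p = 3.61e-06) for Alox12.

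Other platelet genes followed the same order of libraries or fell more evenly. Tubb1, the platelet beta tubulin, had 0.553, 2.19, 4.29 and 0.179 CPM in ME libraries 1 to 4, against 14.9, 8.67, 43.5 and 20.6 CPM in Control libraries 1 to 4, a log2 fold change of -3.59 ± 0.70 (standard error; edgeR, adjusted p = 0.00102). Gp1ba, the receptor chain that binds von Willebrand factor, had 1.45, 1.99, 3.58 and 1.86 CPM in ME libraries 1 to 4, against 12.7, 7.44, 20.4 and 14.0 CPM in Control libraries 1 to 4 and a log2 fold change of -2.62 ± 0.44 (adjusted p = 2.08e-04). Treml1, a receptor of platelet granules, changed by -2.86 ± 0.54 log2 (adjusted p = 6.77e-04). Plek, pleckstrin, was abundant, with 167, 189, 166 and 119 CPM in ME libraries 1 to 4, against 316, 296, 382 and 358 CPM in Control libraries 1 to 4, and changed by -1.08 ± 0.16 log2 (adjusted p = 4.34e-05). Itga2b, the integrin alpha IIb chain, changed by -1.19 ± 0.31 log2 (adjusted p = 0.00934). Pf4, platelet factor 4, had 26.7, 27.3, 14.3 and 2.31 CPM in ME against 94.5, 63.6, 116 and 134 CPM in Control, and its call (log2 fold change -2.53 ± 0.77, adjusted p = 0.023) ended without ME library 3 (0.058), ME library 4 (0.0592) or Control library 4 (0.0536). The master factor Nfe2 (log2 fold change -0.08 ± 0.13), Vwf (log2 fold change -0.49 ± 0.47) and Selp (log2 fold change 0.66 ± 0.56) were not called. The 35 listed genes summed to 1254 to 1570 CPM in ME and 1978 to 3095 CPM in Control. In bulk RNA, fewer cells of a type and less RNA per cell cannot be told apart.

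**Figure D4:**
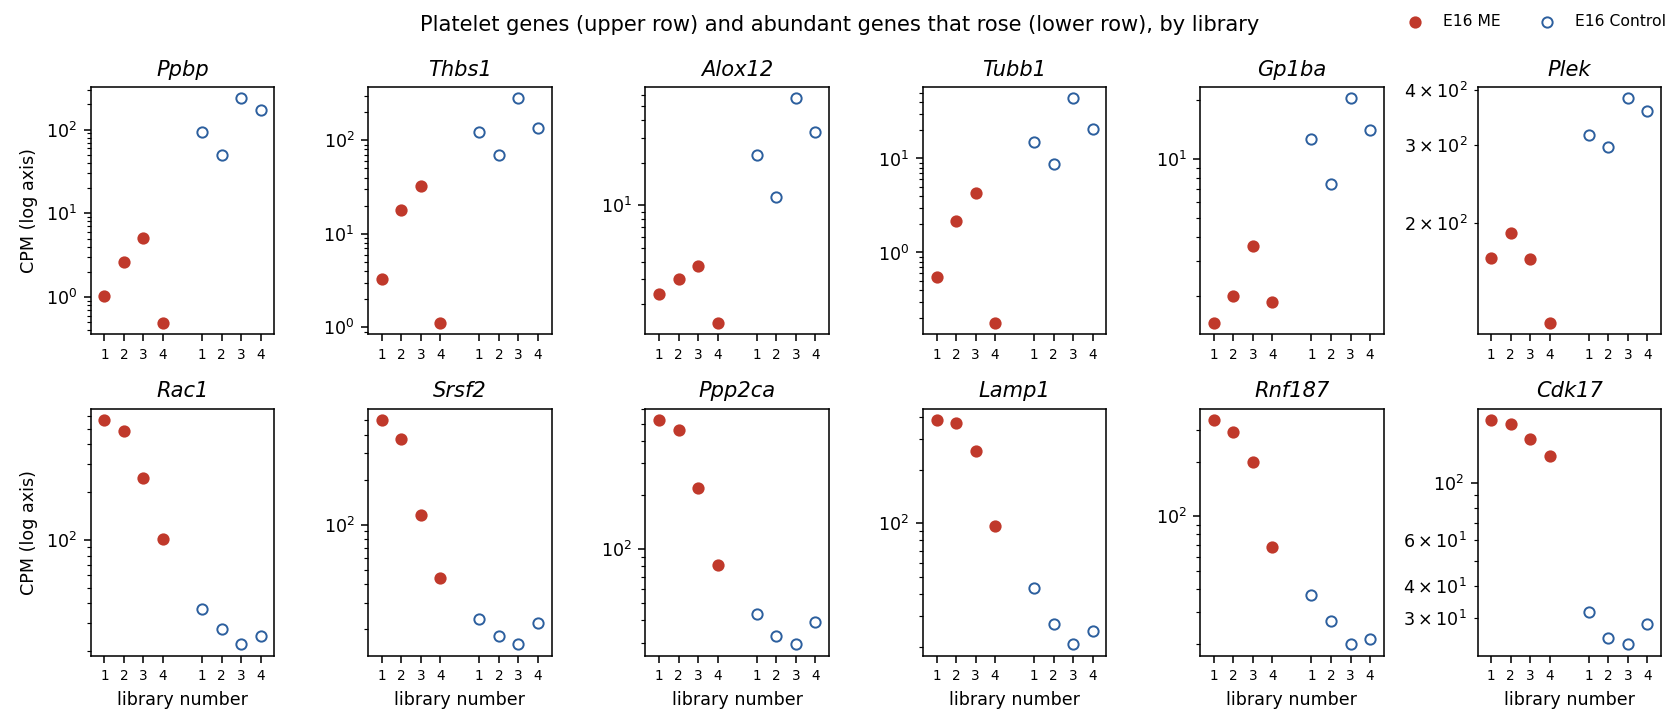
CPM on a log axis, by library, of 6 platelet genes (upper row) and 6 abundant genes that rose (lower row), with ME libraries 1 to 4 left of Control libraries 1 to 4. Platelet genes lie lower in all ME libraries with Control library 2 the lowest control in most, and Rac1, Srsf2, Ppp2ca, Lamp1 and Rnf187 spread several-fold among ME libraries while Cdk17 does not.

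Further deep falls were in genes of varied function, platelet genes such as Ly6g6f and Gp6 among them. Slc6a4, Ly6g6f, Gp6, Clec1b and Syt13 had Control library 3 highest and Control library 2 lowest among controls, as Ppbp had. Scin, the actin-severing protein scinderin, had 89.7, 92.7, 64.2 and 73.8 CPM in ME libraries 1 to 4, against 332, 313, 251 and 244 CPM in Control libraries 1 to 4, a log2 fold change of -1.83 ± 0.43 (standard error; edgeR, adjusted p = 0.00459). Gja1, the gap junction protein connexin 43, had 50.8, 46.1, 49.6 and 47.4 CPM in ME libraries 1 to 4, against 80.0, 94.1, 102 and 94.5 CPM in Control libraries 1 to 4 and fell by 0.93 ± 0.10 log2 (adjusted p = 2.46e-06). Anxa1, annexin A1, had 144, 150.1, 147 and 55.6 CPM in ME libraries 1 to 4, against 476, 274, 188 and 219 CPM in Control libraries 1 to 4 and changed by -1.22 ± 0.28 log2 (adjusted p = 0.00414). In these 3 genes the groups did not overlap. Lvrn, an aminopeptidase, changed by -3.14 ± 0.58 log2 (adjusted p = 5.45e-04), Syt13, a synaptotagmin, by -3.26 ± 0.91 log2 (adjusted p = 0.0133), and Ly6g6f, a platelet surface protein, by -3.64 ± 0.93 log2 (adjusted p = 0.00757). Nabp2, a single-stranded DNA binding protein, fell by a smaller but even step, with 54.8, 49.3, 52.4 and 52.0 CPM in ME libraries 1 to 4, against 76.8, 82.9, 84.1 and 81.2 CPM in Control libraries 1 to 4 (log2 fold change -0.64 ± 0.08, adjusted p = 5.69e-06). Further large falls did not overlap between groups and kept their direction, but lost their calls in some fits without 1 library. The serotonin transporter Slc6a4 changed by -3.98 ± 1.14 log2 (adjusted p = 0.0168), with adjusted p = 0.0508 without ME library 1 and 0.0542 without ME library 4, and with log2 fold changes from -4.36 to -3.60 over such fits. Gp6, the platelet collagen receptor, changed by -3.40 ± 1.02 log2 (adjusted p = 0.0209), with adjusted p = 0.051 without ME library 1 and 0.0656 without Control library 3. Clec1b (log2 fold change -2.71 ± 0.85, adjusted p = 0.0277), Chil1 (log2 fold change -3.38 ± 1.07, adjusted p = 0.0286) and Serpinb2 (log2 fold change -3.27 ± 1.11, adjusted p = 0.0407) lost their calls without ME library 1 and without at least 2 other libraries, with adjusted p up to 0.0747, 0.126 and 0.11. The amino acid enzyme Asns had 158, 155, 159 and 56.7 CPM in ME against 312, 324, 302 and 280.3 CPM in Control, and its call (log2 fold change -1.21 ± 0.43, adjusted p = 0.048) ended without any 1 of the 8 libraries (adjusted p up to 0.147).

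Genes of other mature blood cells showed few calls. Of 19 mast cell and basophil genes 3 fell (15.8%, against 8.47% of all genes) and none rose. The basophil protease Prss34 had 0, 0.160, 0.146 and 0 CPM in ME libraries 1 to 4, against 2.83, 4.95, 5.38 and 7.54 CPM in Control libraries 1 to 4, and its log2 fold change of -5.94 ± 1.71 (standard error; edgeR, adjusted p = 0.0169) rests on 16 counts over the 4 ME libraries. Its call ended without ME library 4 (adjusted p = 0.0565) and with limma-voom (adjusted p = 0.244). Mcpt8, another basophil protease, had 2.10, 2.31, 2.16 and 1.12 CPM in ME libraries 1 to 4, against 13.1, 9.84, 8.98 and 12.6 CPM in Control libraries 1 to 4 and changed by -2.53 ± 0.36 log2 (adjusted p = 3.99e-05). The mast cell genes Cpa3 (log2 fold change -0.72 ± 0.49) and Ms4a2 (log2 fold change -0.01 ± 0.74) were not called. Of 23 neutrophil genes 2 fell (8.7%), near the 8.47% of all genes. Ltf, lactoferrin of neutrophil granules, had 11.1, 20.4, 28.6 and 10.3 CPM in ME libraries 1 to 4, against 467, 118, 58.8 and 72.2 CPM in Control libraries 1 to 4, so Control library 1 alone set much of the group's mean, and its call (log2 fold change -3.34 ± 0.94, adjusted p = 0.0151) ended without Control library 1 (0.0844) or ME library 4 (0.0539). The neutrophil list summed to 1289 to 6815 CPM in ME and 4693 to 11572 CPM in Control, and no member fell without ME library 4 or without Control library 1. Elane (log2 fold change -0.17 ± 1.28) and Mpo (log2 fold change -0.24 ± 0.63) were not called.

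Erythroid, monocyte, dendritic, T and NK cell, hepatocyte and stromal genes were also counted. Of 25 erythroid genes 2 rose and 3 fell (20% called, near the 21.8% of all genes). Between 1 and 4 were called in all without 1 library. Gata1, the master factor of red cells and megakaryocytes, had 11.4, 11.9, 13.9 and 7.91 CPM in ME libraries 1 to 4, against 25.4, 18.6, 24.8 and 23.9 CPM in Control libraries 1 to 4, and its call (log2 fold change -1.04 ± 0.32; standard error; edgeR, adjusted p = 0.0213) ended without ME library 4 (adjusted p = 0.0774). The globin genes Hba-a1 (log2 fold change -0.11 ± 1.10) and Hbb-bs (log2 fold change -0.13 ± 0.57) were not called. Of 23 monocyte and macrophage genes 2 rose (1 without any library but ME library 4), of 18 dendritic cell and MHC class II genes 1 rose (none without any 1 of 6 libraries), and of 15 T and NK cell genes 1 rose. These shares, 8.7%, 5.56% and 6.67%, were below the 13.3% of all genes that rose. The lists summed to 276 to 940 CPM in ME and 745 to 1707 CPM in Control for monocytes and macrophages, 1193 to 1406 CPM in ME and 1215 to 1377 CPM in Control for dendritic cells, and 122 to 160 CPM in ME and 137 to 156 CPM in Control for T and NK cells. None of 2 tested hepatocyte genes or 5 tested stromal genes was called, with sums of 6.68 to 8.84 CPM in ME against 6.54 to 8.17 CPM in Control and of 28.5 to 57.0 CPM in ME against 51.1 to 71.3 CPM in Control. The part of these cells in the falls above was not tested.

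Genes that make ribosomes fell almost without exception. Of 30 ribosome biogenesis genes 29 fell and 1 rose, and 23 to 28 fell in the fits without 1 library. Ncl, nucleolin, had 395, 448, 541 and 412 CPM in ME libraries 1 to 4, against 943, 886, 749 and 779 CPM in Control libraries 1 to 4, a log2 fold change of -0.90 ± 0.18 (standard error; edgeR, adjusted p = 9.27e-04). Polr1b, a subunit of RNA polymerase I, had 145, 154, 169 and 144 CPM in ME libraries 1 to 4, against 228, 258, 234 and 222 CPM in Control libraries 1 to 4 and fell by 0.62 ± 0.10 log2 (adjusted p = 1.02e-04). Nob1, which cuts the precursor of 18S RNA, fell by 0.63 ± 0.08 log2 (adjusted p = 1.85e-05). The exception, the assembly factor Rrs1, had 83.1, 75.8, 67.3 and 46.0 CPM in ME libraries 1 to 4, against 27.8, 15.8, 8.72 and 8.28 CPM in Control libraries 1 to 4 and rose by 2.16 ± 0.44 log2 (adjusted p = 0.00131). The list summed to 4521 to 5402 CPM in ME and 7394 to 8077 CPM in Control.

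Of 50 cytosolic ribosomal protein genes 23 fell and none rose. Rpl4 had 932, 925, 952 and 948 CPM in ME libraries 1 to 4, against 1302, 1270.2, 1219 and 1284 CPM in Control libraries 1 to 4 and fell by 0.43 ± 0.08 log2 (standard error; edgeR, adjusted p = 7.39e-04). The count ran from 10 without ME library 3 or Control library 4 to 26 in the fits without 1 library, and was 15 with library size only, and GC correction gave 12. Of 19 aminoacyl-tRNA synthetases, the enzymes that charge transfer RNA, 16 fell and none rose. Yars had 111, 121, 147 and 101 CPM in ME libraries 1 to 4, against 215, 233, 189.9 and 195 CPM in Control libraries 1 to 4 and fell by 0.79 ± 0.13 log2 (adjusted p = 1.18e-04), and Kars fell by 0.51 ± 0.07 log2 (adjusted p = 4.54e-05).

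Of 13 genes of the Myc network 3 rose and 2 fell. Myc had 265, 255, 282 and 309.7 CPM in ME libraries 1 to 4, against 524, 526, 463 and 439 CPM in Control libraries 1 to 4, a log2 fold change of -0.81 ± 0.13 (standard error; edgeR, adjusted p = 1.37e-04). Antagonists of MYC that bind the same partner were among the genes that rose: Mxi1 had 24.7, 27.0, 17.1 and 18.5 CPM in ME libraries 1 to 4, against 7.99, 5.17, 4.99 and 4.87 CPM in Control libraries 1 to 4 and rose by 1.92 ± 0.25 log2 (adjusted p = 1.51e-05), and Mxd4 rose by 1.34 ± 0.21 log2 (adjusted p = 8.35e-05). The partner gene Max was not called (log2 fold change -0.31 ± 0.13, adjusted p = 0.1).

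Enzymes of nucleotide and serine synthesis fell at 22 of 26 genes and rose at 1. Gart, an enzyme of purine synthesis, had 336, 359, 388 and 286 CPM in ME libraries 1 to 4, against 528, 592, 544 and 501 CPM in Control libraries 1 to 4, a log2 fold change of -0.66 ± 0.09 (standard error; edgeR, adjusted p = 1.71e-05). Phgdh, the first enzyme of serine synthesis, had 759, 786, 923 and 668 CPM in ME libraries 1 to 4, against 1289, 1432, 1218 and 1138 CPM in Control libraries 1 to 4 and fell by 0.70 ± 0.16 log2 (adjusted p = 0.00296). Impdh1, an isoform of the enzyme at the start of guanine synthesis, was the exception at 0.72 ± 0.17 log2 (adjusted p = 0.00405), while the other isoform, Impdh2, fell by 0.48 ± 0.08 log2 (adjusted p = 2.07e-04). Glycolysis genes fell at 13 of 23 and rose at 1. Slc2a3, a glucose transporter, had 79.7, 83.0, 94.2 and 104 CPM in ME libraries 1 to 4, against 202, 166, 216 and 204 CPM in Control libraries 1 to 4 and fell by 1.12 ± 0.12 log2 (adjusted p = 1.45e-06). Eno1 had 961, 1033, 1231 and 949 CPM in ME libraries 1 to 4, against 1909, 1920.0, 1669 and 1623 CPM in Control libraries 1 to 4 and fell by 0.77 ± 0.15 log2 (adjusted p = 9.13e-04), and Pgam1 fell by 0.75 ± 0.13 log2 (adjusted p = 3.19e-04). The member that rose, Aldoc (log2 fold change 1.00 ± 0.28, adjusted p = 0.0141), had 27.8 CPM in ME library 4 and 9.23 to 10.4 CPM in the other ME libraries, against 5.60 to 8.63 CPM in Control. Its call ended without ME library 4 (log2 fold change 0.45, adjusted p = 0.122) or Control library 2 (adjusted p = 0.051).

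Mitochondrial genes followed in smaller number, and lipid genes fell at a share near that of all genes. Of 36 nuclear genes of the respiratory chain 16 fell and none rose, with 10 to 21 without 1 library and the fewest without ME library 4. Sdhb, a subunit of succinate dehydrogenase, had 359, 359, 336 and 289 CPM in ME libraries 1 to 4, against 438, 486, 463 and 447 CPM in Control libraries 1 to 4 and fell by 0.45 ± 0.09 log2 (standard error; edgeR, adjusted p = 0.00101). Of 26 genes of cholesterol and fatty acid synthesis 3 fell (11.5%), near the 8.47% of all genes, and none was called without ME library 1 or Control library 3. Of 16 polyamine genes 2 rose and 3 fell, with 1 fall without ME library 4 or Control library 2 or 4. Odc1, the rate-limiting enzyme of polyamine synthesis and a MYC target, had 412, 386, 347 and 183 CPM in ME libraries 1 to 4, against 132, 82.9, 51.8 and 48.7 CPM in Control libraries 1 to 4 and rose by 2.07 ± 0.41 log2 (adjusted p = 0.00124), against the direction of Myc itself. Of 21 genes of the ATF4 response 4 fell, and 1 to 3 without 1 library. Sfxn1, a mitochondrial serine carrier, had 202, 199, 221 and 190.1 CPM in ME libraries 1 to 4, against 315, 314, 297 and 291 CPM in Control libraries 1 to 4 and fell by 0.59 ± 0.07 log2 (adjusted p = 6.33e-06). Maoa, monoamine oxidase A, had 17.4, 17.7, 15.9 and 21.1 CPM in ME libraries 1 to 4, against 38.7, 43.4, 41.8 and 41.7 CPM in Control libraries 1 to 4 and fell by 1.20 ± 0.11 log2 (adjusted p = 2.53e-07).

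Genes of the cell cycle fell at the replication and mitosis end and moved both ways at the start. Of 30 replication genes 10 fell and none rose, with 6 to 12 without 1 library. Orc1, which marks replication origins, had 21.9, 27.2, 23.8 and 17.6 CPM in ME libraries 1 to 4, against 43.9, 44.6, 43.1 and 42.4 CPM in Control libraries 1 to 4, a log2 fold change of -0.94 ± 0.16 (standard error; edgeR, adjusted p = 2.08e-04). Of 26 mitosis genes 14 fell and none rose, with 5 without ME library 4 and 14 at most. Cdc20, an activator of mitotic exit, had 229.6, 224, 243 and 183 CPM in ME libraries 1 to 4, against 316, 330.5, 309 and 305 CPM in Control libraries 1 to 4 and fell by 0.52 ± 0.11 log2 (adjusted p = 0.00138). Of 25 genes of cell cycle entry 8 rose and 3 fell, with 1 fall without ME library 1. Cdkn1c, the imprinted inhibitor p57 that keeps stem cells quiescent, had 14.4, 13.0, 12.3 and 16.1 CPM in ME libraries 1 to 4, against 2.39, 1.14, 0.981 and 0.578 CPM in Control libraries 1 to 4 and rose by 3.44 ± 0.60 log2 (adjusted p = 3.86e-04). E2f5, a repressor of the E2F family, rose by 2.48 ± 0.36 log2 (adjusted p = 4.54e-05), and E2f1, an activator, by 2.00 ± 0.46 log2 (adjusted p = 0.00388). Cdk6 changed by -0.41 ± 0.13 log2 (adjusted p = 0.0298), and its call ended without ME library 1 (0.0762), ME library 4 (0.102), Control library 1 (0.081) or Control library 2 (0.104). Cdkn1a, the inhibitor p21, was not called (log2 fold change -0.47 ± 0.42, adjusted p = 0.462).

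Genes of cell death and of the p53 response were mixed. Of 17 Bcl2 family genes 3 rose and 4 fell. Mcl1, a survival factor of stem cells, had 184, 177, 51.9 and 35.9 CPM in ME libraries 1 to 4, against 23.6, 21.1, 19.2 and 21.4 CPM in Control libraries 1 to 4 and rose by 2.40 ± 0.56 log2 (standard error; edgeR, adjusted p = 0.00452), while the killer protein gene Bid fell by 0.50 ± 0.12 log2 (adjusted p = 0.00329). Bcl2 (log2 fold change -0.23 ± 0.15) was not called. Without ME library 1 or ME library 2, 2 of the family rose and 2 fell. Of 22 p53 targets 5 rose and 2 fell (31.8% called, against 21.8% of all genes), and without ME library 4, 2 rose and 2 fell. Ei24 rose by 0.76 ± 0.20 log2 (adjusted p = 0.0102) and Aen fell by 0.42 ± 0.11 log2 (adjusted p = 0.00844), and Mdm2 was not called (log2 fold change 0.04 ± 0.08, adjusted p = 0.76).

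Interferon response genes rose at 9 of 30 and fell at 1. Trim30a, an interferon-induced ubiquitin ligase, had 219, 222, 201 and 377 CPM in ME libraries 1 to 4, against 140.3, 159, 139 and 99.3 CPM in Control libraries 1 to 4, a log2 fold change of 0.92 ± 0.19 (standard error; edgeR, adjusted p = 0.00119). Gbp2, a guanylate-binding protein, had 19.7, 23.0, 25.0 and 118 CPM in ME libraries 1 to 4, against 12.6, 12.1, 14.3 and 10.9 CPM in Control libraries 1 to 4, so ME library 4 had more than 4 times the level of any other ME library, and its log2 fold change of 1.89 ± 0.40 (adjusted p = 0.00184) was 0.85 without it (adjusted p = 0.00215). Without ME library 4, 3 genes of the list rose and none fell. The list summed to 4022 to 6883 CPM in ME and 2517 to 4033 CPM in Control. Ifi27, a mitochondrial protein, was the member that fell (log2 fold change -0.65 ± 0.21, adjusted p = 0.0287), and its call ended without ME library 4 (0.11), Control library 2 (0.065) or Control library 3 (0.0719). Isg15 (log2 fold change 0.39 ± 0.35, adjusted p = 0.467) and Irf7 (log2 fold change 0.59 ± 0.35, adjusted p = 0.247) were not called. Ifitm1, by name an interferon-induced transmembrane protein, is not in the list and is not in its counts. It was among the deepest falls of abundant genes, with 422, 351, 339.5 and 457 CPM in ME libraries 1 to 4, against 926, 963, 832 and 726 CPM in Control libraries 1 to 4 and a log2 fold change of -1.13 ± 0.15 (adjusted p = 1.44e-05). Of 15 MHC class I genes 3 rose, among them H2-T22 by 0.80 ± 0.16 log2 (adjusted p = 9.53e-04). H2-K1 (log2 fold change 0.17 ± 0.13) and B2m (log2 fold change 0.19 ± 0.10) were not called.

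Inflammatory genes showed few calls, with 1 of 25 higher and 3 lower (16% called, against 21.8% of all genes). There was no rise without ME library 2 or 3 or Control library 1, 2 or 4. Tnf, tumour necrosis factor, had 6.69, 6.54, 6.54 and 1.25 CPM in ME libraries 1 to 4, against 24.6, 35.9, 13.8 and 17.3 CPM in Control libraries 1 to 4, a log2 fold change of -2.12 ± 0.57 (standard error; edgeR, adjusted p = 0.0111). Immediate early genes rose at 6 of 18 and fell at none: Ier5 had 35.4, 31.8, 24.0 and 21.9 CPM in ME libraries 1 to 4, against 7.83, 4.43, 2.99 and 4.07 CPM in Control libraries 1 to 4 and rose by 2.55 ± 0.41 log2 (adjusted p = 1.37e-04), and Jund rose by 3.38 ± 0.60 log2 (adjusted p = 4.63e-04), while Fos (log2 fold change -0.58 ± 0.55) and Junb (log2 fold change 0.03 ± 0.48) were not called. Of 23 chaperones 10 fell and 1 rose. Hspd1, the mitochondrial chaperonin, had 737, 708, 712 and 601 CPM in ME libraries 1 to 4, against 1096, 1064, 1078 and 1113 CPM in Control libraries 1 to 4 and fell by 0.66 ± 0.09 log2 (adjusted p = 1.95e-05), and without ME library 4 or Control library 2, 6 chaperones fell. Of 20 glutathione and NRF2 genes 2 rose and 6 fell. Gclc and Gclm, the subunits of the enzyme that starts glutathione synthesis, rose by 2.41 ± 0.45 log2 (adjusted p = 7.17e-04) and 2.16 ± 0.43 (adjusted p = 0.00127), and Prdx6, a peroxiredoxin outside the list, had 535, 486, 495 and 486 CPM in ME libraries 1 to 4, against 686, 701, 742 and 755 CPM in Control libraries 1 to 4 and fell by 0.53 ± 0.07 log2 (adjusted p = 7.88e-06).

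Developmental genes were counted in 3 lists. Of 16 fetal progenitor genes 1 fell, Mycn (6.25% called, against 21.8% of all genes). Lin28b (log2 fold change 0.05 ± 0.24, adjusted p = 0.914), Igf2bp3 (log2 fold change -0.16 ± 0.17) and Hmga2 (log2 fold change 0.44 ± 0.16), which mark fetal blood progenitors, were not called. Of 18 imprinted growth genes 4 rose and 2 fell, and without Control library 2, 2 rose and 1 fell. Mest, a hydrolase of the mesoderm, had 0.277, 0.241, 0.292 and 0.582 CPM in ME libraries 1 to 4, against 3.38, 1.78, 7.21 and 3.80 CPM in Control libraries 1 to 4, a log2 fold change of -3.54 ± 0.54 (standard error; edgeR, adjusted p = 7.35e-05). Dlk1, a surface ligand of fetal progenitors, had 112, 109.8, 98.4 and 313 CPM in ME against 388, 312, 337 and 322 CPM in Control. ME library 4 lay among the Control libraries, and the change of -1.10 ± 0.38 (adjusted p = 0.0408) was -1.67 without it (adjusted p = 0.00198), while the call ended without any 1 of the other 7 libraries (adjusted p up to 0.116). Of 17 targets of TGF-beta, Notch and Wnt signals 7 rose and none fell. Smad6 and Smad7, inhibitors of the BMP and TGF-beta pathways, rose by 3.53 ± 0.66 log2 (adjusted p = 5.92e-04) and 2.11 ± 0.42 (adjusted p = 0.00108), and Nrarp, a Notch target, by 4.39 ± 0.87 log2 (adjusted p = 9.87e-04) with no ME library over 2.01 CPM.

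The E16 effects were set beside those at the later ages, with no libraries shared between the 3 comparisons. At P14 edgeR called 4168 genes (22%) and at 8wk 5392 (28.5%). Genes called in the same direction at E16 and P14 numbered 2692, which is 65.3% of the E16 calls and 64.6% of the P14 calls, and 1 gene was called in opposite directions. For E16 and 8wk the number was 2344, or 56.8% of the E16 calls and 43.5% of the 8wk calls, with 46 in opposite directions. A test of the difference in effect called 4 genes for E16 against P14 (0.0211%). There 888 of 18931 genes had an unadjusted p under 0.05, a share below the 0.05 that chance alone would give. The same test called 161 genes for E16 against 8wk (0.85%), of which 74 had the higher log2 fold change at E16 (0.391%) and 87 the lower (0.46%). For that difference 2724 genes had an unadjusted p under 0.05, a share above 0.05.

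The 4 genes that differed between E16 and P14 were Alox12, Ifi27, Kynu and Crispld1, with effects given as log2 fold changes of ME over Control. Alox12 had an effect of -3.55 ± 0.41 log2 at E16 and 0.77 ± 0.39 log2 at P14 (SE; edgeR adjusted p of the difference = 0.00191), with means of 2.65 ± 0.955 CPM in ME and 31.0 ± 19.4 CPM in Control at E16 (SD, n = 4 each) but under 2 CPM in both groups at P14, where it was not called. Ifi27 had an effect of -0.65 ± 0.21 log2 at E16 and 1.15 ± 0.21 log2 at P14 (adjusted p of the difference = 0.0259). Kynu, an enzyme of tryptophan breakdown that was not called at E16, had an effect of 0.22 ± 0.26 log2 at E16 and 2.40 ± 0.28 log2 at P14 (0.0268). Crispld1, a secreted protein, had 4.75, 4.98, 6.74 and 7.24 CPM in ME libraries 1 to 4, against 0.977, 1.20, 1.53 and 1.60 CPM in Control libraries 1 to 4, and had an effect of 2.16 ± 0.21 log2 at E16 and 0.40 ± 0.19 log2 at P14, where it was not called (0.0227). In fits without 1 E16 library 1 to 4 genes differed between E16 and P14, and 29 did with DESeq2. At P14 libraries of the same number correlated in their deviations, but so did some of different numbers. With age by replicate number as a block, 2 genes differed.

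More genes differed between E16 and 8wk. Skida1 rose at both ages, by 4.39 ± 0.31 log2 at E16 and 2.30 ± 0.30 log2 at 8wk (SE; edgeR adjusted p of the difference = 0.017). Pcdh7 had an effect of 4.27 ± 0.37 log2 at E16 and 1.21 ± 0.34 log2 at 8wk (0.00352). Sox18, a factor of vessels, had 5.12, 5.18, 4.17 and 10.3 CPM in ME libraries 1 to 4, against 0.785, 0.461, 1.33 and 1.02 CPM in Control libraries 1 to 4, with effects of 2.77 ± 0.40 log2 at E16 and 0.19 ± 0.41 log2 at 8wk, where it was not called (0.0278). Btc, an epidermal growth factor family ligand, had an effect of 1.77 ± 0.27 log2 at E16 and -0.73 ± 0.26 log2 at 8wk (0.00314). Thbs1, Tnf and Cxcl10 were among the genes with the lower effect at E16. Thbs1 had an effect of -3.49 ± 0.83 log2 at E16 and 3.14 ± 0.84 log2 at 8wk (0.011). Tnf had an effect of -2.12 ± 0.57 log2 at E16 and 1.86 ± 0.57 log2 at 8wk (0.0209). Cxcl10, an interferon-induced chemokine, had 14.6, 13.3, 9.68 and 31.9 CPM in ME libraries 1 to 4, against 11.3, 21.6, 15.1 and 5.28 CPM in Control libraries 1 to 4 and was not called at E16 (log2 fold change 0.38 ± 0.64, adjusted p = 0.719), against 5.37 ± 0.79 log2 at 8wk (0.0188). Jchain, which joins secreted antibodies, had an effect of -2.51 ± 0.82 log2 at E16 and 2.83 ± 0.78 log2 at 8wk (0.0272), Cox6a2, a respiratory subunit of muscle not called at E16, of -0.78 ± 0.59 log2 at E16 and 3.43 ± 0.64 log2 at 8wk (0.0214), and Lhfp, a tetraspan protein, of 1.92 ± 0.36 log2 at E16 and -0.98 ± 0.34 log2 at 8wk (0.00583). At 8wk the means for Jchain were 44.5 ± 72.8 CPM in ME and 6.24 ± 4.30 CPM in Control (SD, n = 4 each), so in ME the SD exceeded the mean. ME libraries at 8wk were also uneven for Cox6a2 (6.50 ± 5.69 CPM) and Tnf (16.2 ± 13.9 CPM). No 8wk library was left out in turn, so the part of single libraries was not tested. Cdh2 rose at both ages, with means of 46.0 ± 11.8 CPM in ME and 0.715 ± 0.156 CPM in Control at E16 (SD, n = 4 each) and of 12.7 ± 2.38 CPM in ME and 0.0107 ± 0.0215 CPM in Control at 8wk, and the difference of effects was called (0.0146) but has no readable size, since 8wk Control was near 0. Without 1 E16 library 70 to 194 genes differed between E16 and 8wk.

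The medians of the log2 fold changes of 5 lists at the 3 ages are given without a test. Interferon genes had a median of 0.57 at E16, 1.43 at P14 and 1.28 at 8wk. B-lineage genes had 1.49 at E16, 2.52 at P14 and 1.49 at 8wk. Platelet genes had -0.85 at E16, -0.11 at P14 and -0.32 at 8wk. Some of them were far lower in the later Controls. Control means at E16, P14 and 8wk were 138, 2.48 and 12.9 CPM for Ppbp and 21.9, 0.184 and 0.271 CPM for Tubb1. Others such as Plek stayed abundant, at 338, 248 and 269 CPM. Genes near 0 in Control have little room to fall, and the part of this in the medians was not tested. Glycolysis genes had -0.49 at E16, -0.53 at P14 and 0.28 at 8wk. Ribosome biogenesis genes had nearly the same median at each age, -0.62 at E16, -0.61 at P14 and -0.59 at 8wk.

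**Figure D5:**
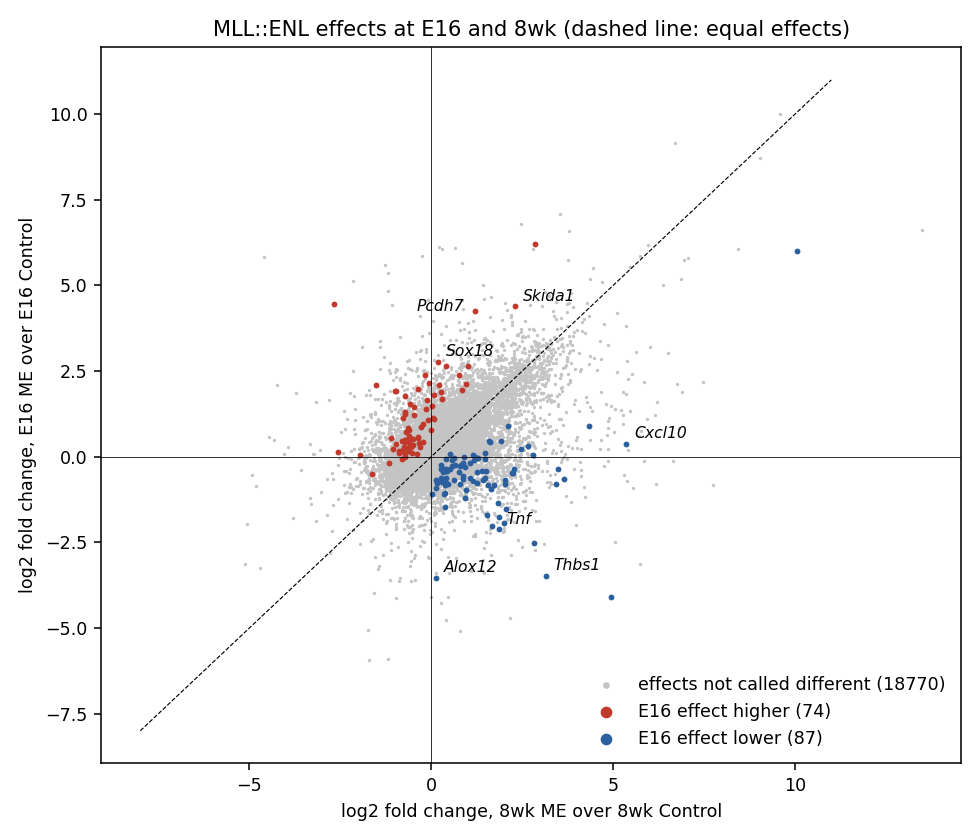
Log2 fold change of ME over Control at E16 (vertical) against that at 8wk (horizontal) for the 18931 genes tested, with the 161 genes whose effects differed between the ages in colour. Skida1, Pcdh7 and Sox18 lie above the diagonal and Thbs1, Tnf and Cxcl10 below it.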

How the data were processed

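RNA-seq libraries of cultured LSK cells were analysed from the gene counts that the authors deposited, raw counts per Ensembl gene in 1 table. Per the submitters' processing notes the tools were STAR 2.7.9a and featureCounts 2.0.3 of Subread, with build GRCm38. The annotation release, strand setting and filters were not given in the sources used here. Per the labels' protocols RNA was extracted with an RNeasy kit and amplified with a Clontech SMART-type kit. The table has 55774 lines, and 168 IDs that stand on several lines with identical counts were kept once, which left 55487 genes. Even numbers made up 63.6% of the counts from 1 to 20 in the median library. Whether read ends or fragments were counted was not given, so counts need not equal molecules.

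All 24 libraries were fitted together with edgeR 4.0.16 in R 4.3.3 (limma 3.58.1), with 1 mean for each of 6 groups, TMM scaling, genes kept by edgeR's filter at a minimum count of 10, and the robust quasi-likelihood test. The fit gave the E16 effect and its differences from the P14 and 8wk effects. Calls were made where the p-value, adjusted after Benjamini and Hochberg over 18931 genes, was under 0.05, and "rose", "fell" and "changed" refer to calls. CPM values use TMM-scaled library sizes, errors of log2 fold changes are standard errors, and CPM are not comparable between genes of different length. The scripts were tested on simulated counts with known changes. Alternatives were DESeq2 1.42.0, limma-voom, other scalings and filters, a replicate block, GC correction, a Y-linked covariate, the E16 libraries alone and leaving out each E16 library.

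Groups came from the sample titles. At P14 libraries with the same number had correlations of 0.187, 0.143, 0.137 and 0.232 in their deviations from the group means. Some of different numbers were as close, at 0.242 for ME library 3 with Control library 4 and 0.157 for ME library 2 with Control library 1. The other pairs of different numbers ran from -0.265 to 0.118, so the number alone did not set the pairs. Members and gene lists were chosen with earlier results of these data known, and a list's count is a description. Named genes were the 15 largest rises and falls among calls without overlap whose higher group averaged 5 CPM or more, the 8 of smallest adjusted p, the 6 largest at 200 CPM or more, up to 5 called members of a list in each direction, all Hox and partner genes, and the 6 largest differences of effect in each direction, with part of these printed. Some genes that this rule names are not reported here. Other members named without a call were picked for their role after their values were seen. RefSeq start windows matched 11622 of 18924 symbols.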

Additional observations from a re-analysis of the deposited data

Results flagged for a closer look

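In 31 of 438 groups of 4 libraries checked, over the 218 genes named and the library totals, 1 library lay further from the other 3 than Dixon's 95% limit allows, where chance alone marks about 1 group in 20. Of these groups 19 were ME, with ME library 4 the distant one in each, and 12 were Control. ME library 4 was the highest of its group for Aldoc (27.8 CPM), Dlk1 (312.7 CPM), Flt3 (459.9 CPM), Gbp2 (117.7 CPM), H2-T22 (191.9 CPM), Hlf (329.4 CPM), Isg15 (250.2 CPM), Lck (51.1 CPM), Mest (0.582 CPM), Ranbp9 (62.8 CPM), Socs5 (104.1 CPM), Sox18 (10.3 CPM), Trim30a (377.3 CPM) and Unc45b (15.3 CPM). It was the lowest for Anxa1 (55.6 CPM), Asns (56.7 CPM), Kynu (5.53 CPM), Lin28b (33.3 CPM) and Tnf (1.25 CPM). Control library 1 was the highest of its group for Bcl2 (35 CPM), Cebpa (3 CPM), Chil1 (56.6 CPM), Ltf (466.9 CPM), Mxi1 (7.99 CPM) and Smad6 (0.802 CPM). Control library 2 was the highest for B2m (2047.9 CPM) and Hoxa3 (0.984 CPM) and the lowest for Rag1 (1.72 CPM) and Timp2 (0.246 CPM). Control library 3 was the highest for Mdm2 (123.8 CPM), and Control library 4 was the lowest for Itgb1 (341.0 CPM).

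Effects of MLL::ENL differed between E16 and a later age at an edgeR adjusted p under 0.05 for the genes that follow, each given with its log2 fold change at E16 minus that at the later age. Against P14 the difference was 1.77 for Crispld1, and it was -4.32 for Alox12, -1.81 for Ifi27 and -2.19 for Kynu. Against 8wk the E16 effect was the higher by 2.50 for Btc, 2.26 for Hoxb5, 1.15 for Hoxa10, 1.11 for Hoxa5, 1.16 for Hmga2, 2.01 for Lin28b and 0.46 for Ezh2. It was also the higher by 2.21 for Crispld1, 2.91 for Lhfp, 3.06 for Pcdh7, 1.65 for Ranbp9, 2.09 for Skida1 and 2.58 for Sox18. Of the genes with the higher E16 effect, Hmga2, Lin28b and Ezh2 were not called at E16, so their differences are not E16 rises. The E16 effect was the lower, with differences of -3.67 for Alox12, -6.63 for Thbs1, -1.44 for Plek, -3.98 for Tnf, -4.98 for Cxcl10, -1.52 for Ifi27 and -1.11 for Il1r1. It was the lower for the glycolysis genes Eno1 at -1.19 and Pgam1 at -0.90, and at -4.04 for Cdh2 (a size that depends on an 8wk Control mean of 0.0107 CPM), -2.69 for Cdkn1a, -4.22 for Cox6a2, -5.35 for Jchain, -1.11 for Kit and -0.47 for Lyn. For Jchain 8wk ME had a mean of 44.5 CPM and an SD of 72.8 CPM. Cxcl10, Cdkn1a, Cox6a2, Kit and Lyn were not called at E16, so their differences are not E16 falls.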

How the results depend on the processing

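The counts of E16 calls held more rises than falls and stayed within 1.5 times of 4125 under every alternative run, from 3024 without ME library 4 to 4728 with DESeq2 (2911 higher, 1817 lower). GC correction gave 64.6% higher calls and library size only 74.6%. The fold changes of Kmt2a, Mllt1 and Skida1 passed the test under every alternative, and none of the named genes changed sign with a call. The differences between ages were less stable, and the cause was not tested. For E16 against 8wk, 161 genes became 107 with no filter, 250 at 1 CPM or more in 4 libraries, 603 with DESeq2 and 59 with the Y-linked covariate, and 70 (without Control library 1) to 194 (without Control library 4) without 1 library, including 72 without Control library 2, 87 without ME library 4 and 105 without ME library 1. For E16 against P14, 4 genes became 29 with DESeq2 and 1 with the Y-linked covariate, and 1 to 4 without 1 library.

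Replicate numbers did not pair the E16 libraries: same-numbered ones correlated at -0.0434, -0.009, -0.027 and 0.000655 in their deviations from the group means, and 8wk libraries at -0.0882 to 0.118. With the number as a block, 3189 genes were called at E16 (2112 higher, 1077 lower), 3044 of them also called without it, and 2 and 173 genes differed in effect from P14 and 8wk. Interferon genes then had 3 rises, JAK-STAT genes 7 rises, B-lineage genes 12 rises, mitosis genes 9 falls and cytosolic ribosomal proteins 8 falls.

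With 4 libraries a group and unknown sources of replicates, a missed call does not show equal levels. Genes under about 1 CPM, such as most Hoxb genes, rest on few counts. ME library 4 moved the counts of several lists, and no label sets it apart from the other ME libraries.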
